A study of Homo sapiens with 24 samples.

Results

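The transforming growth factor beta (TGF-beta) ligands, their receptors and the SMAD proteins that carry the signal to the nucleus were followed at the RNA level in ARPE-19 cells that had received small interfering RNAs (siRNAs). The 10 genes were chosen by name, with no measured value in the rule but with earlier results of these data known. The set holds the ligands TGFB1, TGFB2 and TGFB3, the receptors TGFBR1, TGFBR2 and TGFBR3, and SMAD2, SMAD3, SMAD4 and SMAD7. These are 10 of the 24053 Ensembl genes in the deposited table, and all 10 reached the mean of 1 TPM (a level scaled for transcript length and for the total of the sample) that was required for testing, as did 13810 genes in all. ARPE-19 is an established human line of retinal pigment epithelium (RPE), the pigmented layer behind the photoreceptors. The cells received a scramble siRNA, Pink1 siRNA, Nrf2 siRNA, or both Nrf2 and Pink1 siRNA, here called the double siRNA. There were 3 biological replicates per group for the 4 groups, each measured as 2 technical replicates, which were averaged; all groups are the same line, and no group is free of transfected siRNA. The labels speak of knockout where the series design speaks of siRNA. They also describe scratch wounding of the cultures, and whether the cultures that gave RNA were wounded is not stated in what was used here.

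PINK1 is a kinase that marks damaged mitochondria for removal, and NRF2, encoded by NFE2L2, is a transcription factor that turns on antioxidant genes. TGF-beta ligands are secreted in a latent form that is held in the matrix and has to be released. The active ligand is bound by the type II receptor TGFBR2, which then recruits and phosphorylates the type I receptor TGFBR1, while TGFBR3 (betaglycan) presents ligand, TGFB2 above all, to the other receptors. The type I receptor phosphorylates SMAD2 and SMAD3, which join SMAD4 and act on genes in the nucleus, among them SMAD7, an inhibitor that blocks the receptor. In RPE cells the pathway is known for driving a change from an epithelial to a mesenchymal, matrix-producing state.

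Sequence upstream of 3 of the genes is shown because TGFBR2, TGFB2 and SMAD7 are the 3 of the 10 genes with an unadjusted p under 0.05 in at least 1 comparison below. Each run is the 250 bases before the most upstream RefSeq transcript start (build GRCh38.p14), 5′ to 3′ on the strand of the gene. The run of TGFBR2 is chr3:30606106-30606355 (plus strand, 40.8% G or C), that of TGFB2 is chr1:218345086-218345335 (plus strand, 50.4%), and that of SMAD7 is chr18:48950966-48951215 (minus strand, 48.0%). Capitals mark the letters CAGACA, the extended SMAD box that SMAD3 and SMAD4 are known to bind, on either strand.
TGFBR2: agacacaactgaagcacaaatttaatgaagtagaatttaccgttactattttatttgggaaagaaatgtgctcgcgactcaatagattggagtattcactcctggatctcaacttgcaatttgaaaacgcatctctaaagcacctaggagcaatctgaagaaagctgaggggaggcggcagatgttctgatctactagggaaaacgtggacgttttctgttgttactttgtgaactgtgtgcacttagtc
TGFB2: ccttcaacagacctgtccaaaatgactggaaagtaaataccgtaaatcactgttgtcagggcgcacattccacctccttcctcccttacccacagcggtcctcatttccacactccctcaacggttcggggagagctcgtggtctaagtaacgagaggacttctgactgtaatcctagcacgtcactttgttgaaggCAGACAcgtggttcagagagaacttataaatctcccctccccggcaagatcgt
SMAD7: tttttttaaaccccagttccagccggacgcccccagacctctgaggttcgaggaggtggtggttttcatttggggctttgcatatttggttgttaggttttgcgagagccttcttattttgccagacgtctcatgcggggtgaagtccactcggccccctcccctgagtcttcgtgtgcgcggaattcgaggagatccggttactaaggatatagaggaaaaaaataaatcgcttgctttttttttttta

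All 10 genes were found among the RefSeq promoter windows, which run from 250 bases before to 50 bases after a start, with 26 windows in all because several genes have more than 1 start. Only the 250 bases before each start were searched, on both strands, and the 50 bases after it were not. In that part the SMAD box CAGACA occurred in 4 of these 26 windows, in SMAD3, TGFB2 and TGFBR1, and in 13.6% of all 35116 windows. The core of the antioxidant response element to which NRF2 binds, TGACNNNGC, occurred in 1 of the 26, at a more downstream start of SMAD7, and in 10.9% of all windows. The SMAD palindrome GTCTAGAC, which shares the letters AGAC with the SMAD box, occurred in 0 of the 26 and in 0.182% of all windows. These are matches of letters and say nothing about binding.

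Before the pathway genes, the targets and the libraries were checked. PINK1 stood at 55.8 ± 1.93 TPM (SD, n = 3) with scramble, 14.6 ± 3.22 with Pink1 siRNA, 57.2 ± 8.35 with Nrf2 siRNA and 18.7 ± 2.93 with the double siRNA, and NFE2L2 at 80.7 ± 7.69, 68.7 ± 4.02, 20.03 ± 7.72 and 28.9 ± 6.16 TPM. Both messages fell where they were targeted (limma adjusted p from 0.00056 to 0.0212). Without any 1 of the 3 scramble samples, or without double siRNA replicate 2, the fall of NFE2L2 with the double siRNA was no longer called (adjusted p from 0.0533 to 0.0944). Protein was not measured. Correlations of log2 values were 0.942 to 0.971 within technical pairs and 0.940 to 0.965 between biological replicates of a group. The first are between single measurements and the second between averages of technical repeats, so the ranges cannot be compared directly. A single Ensembl gene without a symbol, ENSG00000226958, took 15.5% to 41.4% of all TPM in a sample, both extremes within the double siRNA group. Because TPM has a fixed total, its share moves every other value. Levels with it removed are given for some of the 10 pathway genes followed here. For genes of the other lists, the called ones included, no level with it removed is given. TPM holds no read counts, so depth is unknown, and the p-values measure only the spread between cultures of 1 line. Of 12 RPE markers in the table, KRT8, KRT18, MITF and OTX2 were well detected with scramble, OTX2 the lowest of them at 57.5 TPM. The rest were low there: RPE65 and SERPINF1 were listed at 0, TYR at 0.402 TPM and RLBP1 at 0.725. LRAT stood at 1.12 TPM, PMEL at 5.08, BEST1 at 5.90 and TYRP1 at 9.92. The pigment genes TYR and TYRP1 rose in all 3 siRNA groups, TYRP1 from 9.92 ± 1.71 TPM to 45.5 ± 6.70, 23.2 ± 1.84 and 26.6 ± 7.11 with Pink1, Nrf2 and double siRNA (limma adjusted p from 0.00056 to 0.0248 for both genes). Of the 10 RPE markers tested the other 8 were not called against scramble, KRT18 among them at 811 ± 69.3 TPM with scramble and 564 ± 93.0 with Nrf2 siRNA. The summed TPM of the 2 endothelial markers matched ran from 0.53 to 2.47 over the samples, that of the 3 of glia and neurons from 0 to 3.995, and that of the 4 of fibroblasts, nearly all PDGFRB, from 34.2 to 62.8. The 3 blood cell markers summed to 19.5 to 38.4 TPM with scramble, 25.4 to 31.7 with Pink1 siRNA, 42.8 to 105.3 with Nrf2 siRNA and 34.3 to 52.9 with the double siRNA, nearly all of it CD68, a lysosomal gene, while PTPRC was at most 0.148 TPM as a group mean. Of 4 photoreceptor markers 0 were matched.

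None of the 10 genes passed the threshold in any of the 10 comparisons made. A gene is called when limma's adjusted p, by Benjamini-Hochberg over all 13810 genes, is under 0.05. Against scramble, 0 of 10 were called with Pink1 siRNA (0.471% of all genes tested were called), 0 with Nrf2 siRNA (0.333%) and 0 with the double siRNA (0.753%). With shares called this low over the whole table, 0 of 10 does not set the genes apart from the rest. At an unadjusted p under 0.05 there were 1, 0 and 1 of the 10. The share of all genes at that unadjusted threshold was not counted, so such counts, here and below, have no background. The median log2 difference of the 10 genes was 0.13, 0.054 and 0.092, beside 0.022, 0.016 and 0.0059 for all genes tested. With ENSG00000226958 removed the medians were 0.056, 0.045 and -0.0095, beside -0.036, 0.0020 and -0.079 for all genes, so the sign with the double siRNA turned. With that gene kept, differences were positive for 7, 8 and 6 of the 10. The share of all genes with a positive difference was not counted, so counts of signs, here and below, have no background. Log2 differences are of TPM + 1, which understates the change of low genes, and in bulk RNA a loss of cells that express a gene and less RNA per cell cannot be told apart.

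**Figure D1:**
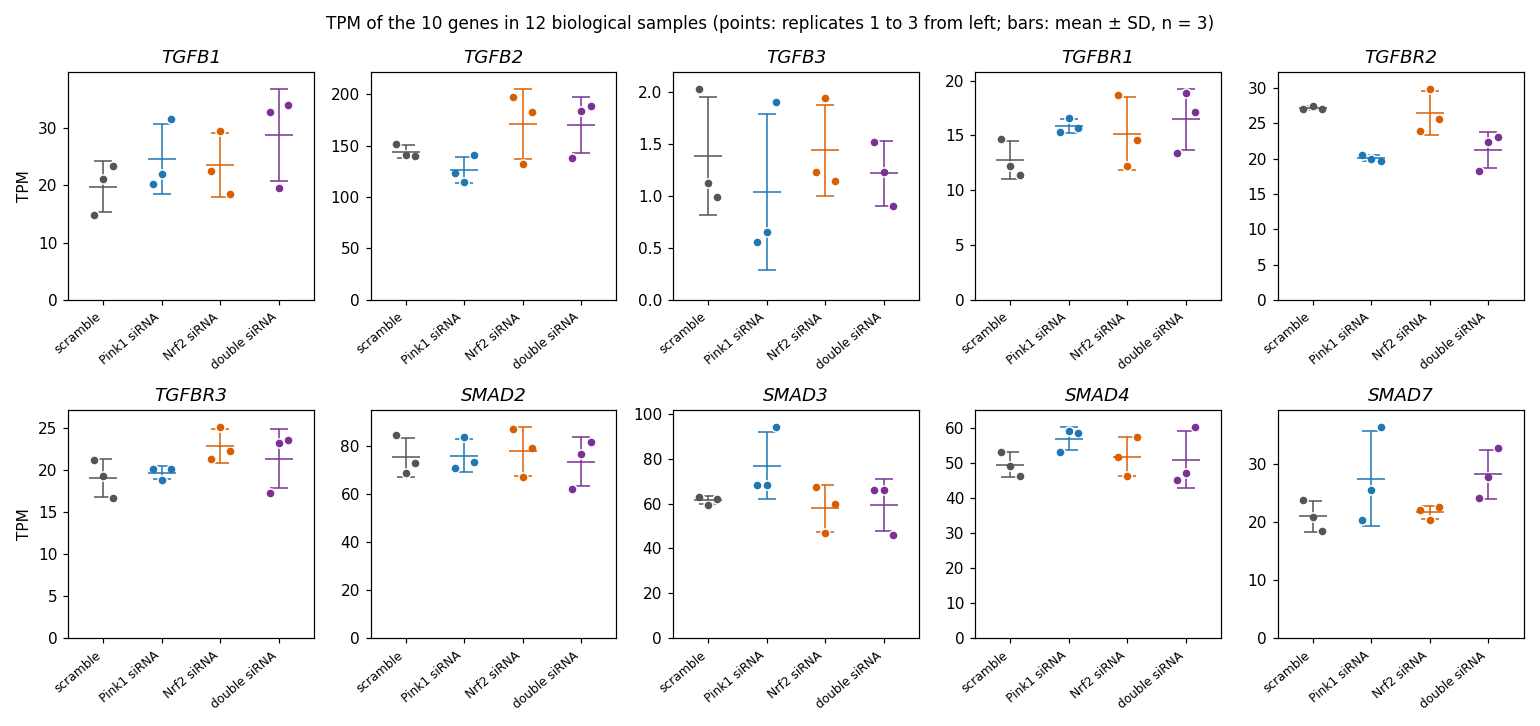
Level of each of the 10 genes (y axis, TPM, from 0) in the 4 siRNA groups (x axis); points are biological replicates, bars the mean ± SD of 3. TGFBR2 lies at 27.0 to 27.5 TPM in the scramble samples and at 19.7 to 20.6 TPM in the Pink1 siRNA samples, while the groups of TGFB1, TGFB3 and SMAD2 overlap.

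The 3 ligands differed widely in level. TGFB2 was the main ligand message, at 144 ± 6.31 TPM with scramble, higher than 95.3% of the genes tested. TGFB1 stood at 19.8 ± 4.48 TPM and TGFB3 at 1.38 ± 0.567 TPM, higher than 64.1% and 6.85% of the genes. TGFB2 made up 87.2 ± 2.53% of the summed ligand TPM with scramble, 83.3 ± 2.44% with Pink1 siRNA, 86.8 ± 5.22% with Nrf2 siRNA and 84.8 ± 4.90% with the double siRNA. In each of the 12 samples it exceeded both other ligands together.

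TGFB2 was measured at 151, 141 and 140 TPM with scramble, at 124, 115 and 141 with Pink1 siRNA, at 198, 133 and 183 with Nrf2 siRNA, and at 138, 184 and 189 with the double siRNA. Of the Pink1 siRNA samples 2 of 3 were lowest of all, and 2 of the 3 samples of each group with Nrf2 siRNA were highest, with overlap between all groups. With ENSG00000226958 removed the Pink1 siRNA samples, at 192, 170 and 187 TPM, lay below all samples of the other groups. The lowest of those was scramble replicate 3 at 207 TPM. The log2 difference from scramble was -0.19 with Pink1 siRNA, 0.23 with Nrf2 siRNA and 0.23 with the double siRNA (SE 0.17 each; limma adjusted p = 0.697, 0.659 and 0.605). Over the 6 samples with Nrf2 siRNA against the 6 without, it was 0.32 (SE 0.12, 95% interval 0.056 to 0.59, limma adjusted p = 0.317).

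TGFB1, the ligand most studied in fibrosis, read 14.8, 21.1 and 23.4 TPM with scramble, 20.2, 21.9 and 31.6 with Pink1 siRNA, 22.5, 29.5 and 18.4 with Nrf2 siRNA, and 32.9, 19.5 and 34.0 with the double siRNA. It had a wide spread: the within-group SD of the averaged values on the log2 scale was 0.36, larger than for 76.1% of the genes tested. Single technical repeats of TGFB1 had an SD of 0.24. The difference with the double siRNA was 0.51 (SE 0.26, 95% interval -0.048 to 1.06, limma adjusted p = 0.398), so a doubling and no change are both inside its interval. TGFB3 ranged from 0.56 to 2.03 TPM over the 12 samples. Its technical SD on the log2 scale was 0.44 for a single measurement. Its SD between replicates of a group, each an average of technical repeats, was 0.34, so these SDs are not on the same basis. Its log2 differences of -0.26, 0.045 and -0.088 had intervals reaching from -0.95 to 0.74.

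Among the receptors, TGFBR2 gave the clearest separation of the 10 genes. It read 27.0, 27.5 and 27.0 TPM with scramble, 20.6, 19.9 and 19.7 with Pink1 siRNA, 23.9, 29.9 and 25.7 with Nrf2 siRNA, and 18.3, 22.4 and 23.0 with the double siRNA. Each sample with Pink1 siRNA, alone or with Nrf2 siRNA, lay below each sample without it. The group means were 27.2 ± 0.27, 20.1 ± 0.446, 26.5 ± 3.10 and 21.2 ± 2.60 TPM, so Pink1 siRNA and the double siRNA stood at 73.9% and 78.1% of scramble.

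The log2 difference of TGFBR2 from scramble was -0.42 with Pink1 siRNA (SE 0.14, 95% interval -0.71 to -0.12, limma adjusted p = 0.226). It was -0.35 with the double siRNA (SE 0.14, 95% interval -0.64 to -0.053, limma adjusted p = 0.269) and -0.041 with Nrf2 siRNA (95% interval -0.34 to 0.25, adjusted p = 0.942). The unadjusted intervals of the first 2 exclude 0, but neither passes adjustment over all genes. The 6 samples with Pink1 siRNA against the 6 without gave -0.36 (SE 0.097, 95% interval -0.57 to -0.15, limma adjusted p = 0.109), and 0 of 10 genes were called there (0.652% of all genes). TGFBR2 was the only one of the 10 whose 6 samples on each side did not overlap, as was so for 1.25% of all genes, and for 1.21% in the like comparison by Nrf2 siRNA, where 0 of the 10 were apart.

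The TGFBR2 call depended on the scaling. With ENSG00000226958 removed and each sample rescaled, TGFBR2 read 41.3, 43.2 and 39.95 TPM with scramble, 31.9, 29.5 and 26.3 with Pink1 siRNA, 34.1, 48.7 and 37.9 with Nrf2 siRNA, and 31.1, 31.7 and 27.3 with the double siRNA. The 6 samples with Pink1 siRNA stayed below the other 6, and the difference of -0.45 was then called (limma adjusted p = 0.0417). It was also called after median-of-ratios rescaling, at -0.38 (limma adjusted p = 0.0440), and missed the threshold after quantile normalization, at -0.36 (adjusted p = 0.0512). Leaving out any 1 of the 12 samples kept the difference between -0.40 and -0.31 and the adjusted p between 0.0820 and 0.248. TGFBR2 had a within-group SD of 0.12 on the log2 scale, smaller than that of all but 2.3% of genes, and a technical SD of 0.048.

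TGFBR1, the kinase that TGFBR2 activates, read 14.7, 12.2 and 11.4 TPM with scramble, 15.4, 16.6 and 15.7 with Pink1 siRNA, 18.7, 12.2 and 14.6 with Nrf2 siRNA, and 13.4, 18.9 and 17.2 with the double siRNA. Its 3 Pink1 siRNA samples were above all scramble samples, and the other groups overlapped with scramble. With ENSG00000226958 removed the Pink1 siRNA samples, at 23.8, 24.6 and 20.9 TPM, overlapped with scramble at 22.4, 19.1 and 16.8. The log2 difference was 0.30 with Pink1 siRNA (95% interval -0.079 to 0.69) and 0.34 with the double siRNA (95% interval -0.042 to 0.72), with limma adjusted p of 0.523 and 0.411. Betaglycan, TGFBR3, read 21.1, 19.2 and 16.6 TPM with scramble and 21.2, 25.1 and 22.2 with Nrf2 siRNA, which lay just above. With ENSG00000226958 removed they overlapped, Nrf2 siRNA replicate 1 at 30.3 TPM and scramble replicate 1 at 32.3. The difference was 0.26 (95% interval -0.072 to 0.59, limma adjusted p = 0.546), and with Pink1 siRNA and the double siRNA it was 0.055 and 0.15.

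The ratio between the receptors within a sample does not depend on the scaling. TGFBR2 was 1.84, 2.26 and 2.37 times TGFBR1 in the scramble samples and 1.34, 1.20 and 1.26 times in the Pink1 siRNA samples. With Nrf2 siRNA the ratios spread over 1.27, 2.45 and 1.76, and with the double siRNA they were 1.36, 1.19 and 1.34. Pink1 siRNA and double siRNA samples thus lay below all scramble samples, and Nrf2 siRNA replicate 1 lay among them. Against TGFBR3 the ratio was 1.45 ± 0.174 with scramble, 1.02 ± 0.0412 with Pink1 siRNA, 1.16 ± 0.034 with Nrf2 siRNA and 1.001 ± 0.048 with the double siRNA. TGFB2 message stood at 5.30 ± 0.259 times that of TGFBR2 with scramble and at 7.99 ± 0.355 times with the double siRNA, with 6.30 ± 0.722 and 6.62 ± 1.98 for Pink1 and Nrf2 siRNA. The ratios were chosen after earlier results were known and carry no test.

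**Figure D2:**
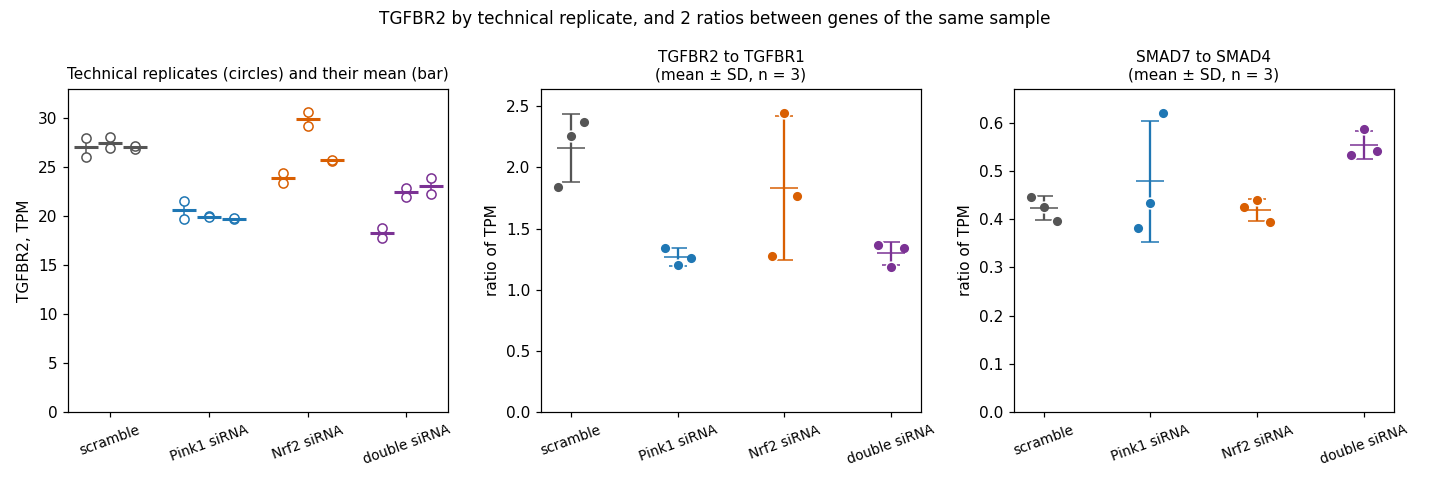
Left, TGFBR2 (y axis, TPM, from 0) with 2 technical replicates as circles and their mean as a bar for each biological replicate; centre and right, the ratios TGFBR2 to TGFBR1 and SMAD7 to SMAD4 (y axes, from 0) with mean ± SD of 3. Technical repeats of TGFBR2 lie closer together than the gap between scramble and Pink1 siRNA, and SMAD7 to SMAD4 is highest as a mean in the double siRNA group at 0.554.

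The SMADs that carry the signal were well above the receptors in TPM. With scramble, SMAD2 stood at 75.5 ± 8.12 TPM, SMAD3 at 61.5 ± 1.77 and the shared partner SMAD4 at 49.6 ± 3.49, higher than 90.2%, 87.7% and 84.6% of the genes tested. SMAD2 had group means of 73.5 to 78.0 TPM and log2 differences of 0.013, 0.042 and -0.042 from scramble. Their 95% intervals reached from -0.38 to 0.38, so a shift of that size remains possible.

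SMAD3 read 62.8, 59.5 and 62.2 TPM with scramble, 68.2, 68.3 and 94.2 with Pink1 siRNA, 67.3, 46.8 and 59.6 with Nrf2 siRNA, and 65.9, 66.0 and 46.0 with the double siRNA. All 3 Pink1 siRNA samples lay above all other 9 samples, and replicate 3 was far above the other two. With ENSG00000226958 removed they still lay above scramble, but double siRNA replicate 1, at 112 TPM, exceeded Pink1 siRNA replicates 1 and 2 at 106 and 101. The log2 difference from scramble was 0.30 (95% interval -0.11 to 0.71, limma adjusted p = 0.545), and Pink1 siRNA against Nrf2 siRNA gave 0.40 (95% interval -0.0063 to 0.81, adjusted p = 0.453). The ratio SMAD3 to SMAD2 was 0.959, 0.814 and 1.28 with Pink1 siRNA beside 0.742, 0.863 and 0.850 with scramble, so the ratios overlap. SMAD4 read 53.3, 59.2 and 58.6 TPM with Pink1 siRNA, its lowest sample at the level of the highest with scramble. The difference was 0.20 (95% interval -0.12 to 0.51, limma adjusted p = 0.620), and 0.060 and 0.030 with Nrf2 siRNA and the double siRNA.

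SMAD7, the inhibitory SMAD that TGF-beta itself induces, read 23.7, 20.9 and 18.4 TPM with scramble, 20.3, 25.6 and 36.4 with Pink1 siRNA, 22.0, 20.3 and 22.6 with Nrf2 siRNA, and 24.1, 27.7 and 32.7 with the double siRNA. The double siRNA samples lay above all samples with scramble or Nrf2 siRNA, while Pink1 siRNA replicate 1 lay among the scramble samples. The log2 difference was 0.40 with the double siRNA (SE 0.20, 95% interval -0.019 to 0.83, limma adjusted p = 0.376) and 0.34 with Pink1 siRNA (adjusted p = 0.522). Over the 6 samples with Pink1 siRNA against the 6 without it was 0.35 (SE 0.14, 95% interval 0.048 to 0.65, limma adjusted p = 0.295). SMAD7 was 0.445, 0.426 and 0.397 times SMAD4 with scramble and 0.533, 0.587 and 0.542 times with the double siRNA, groups that do not overlap, and 0.382, 0.432 and 0.621 times with Pink1 siRNA, which do. Against SMAD3 the ratios of SMAD7 were 0.378, 0.352 and 0.296 with scramble and 0.366, 0.42 and 0.711 with the double siRNA, which overlap. With ENSG00000226958 removed SMAD7 read 41.2, 39.3 and 38.7 TPM with the double siRNA beside 36.3, 32.9 and 27.2 with scramble.

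**Figure D3:**
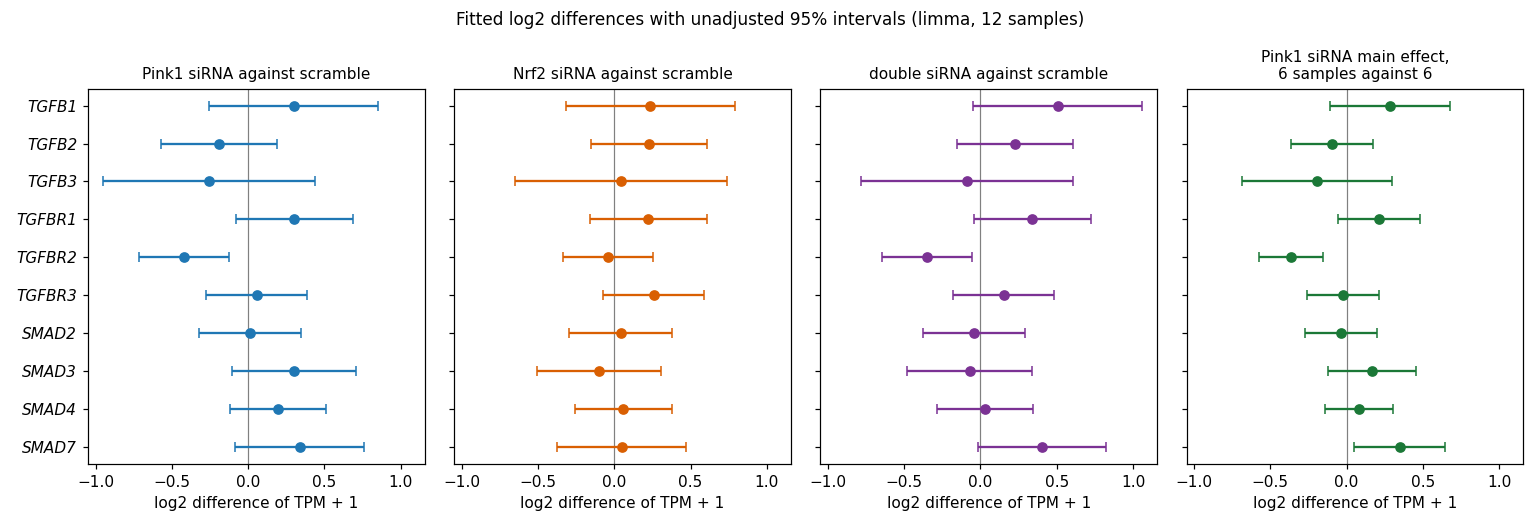
Fitted log2 differences of TPM + 1 (x axis) of the 10 genes (y axis) in 4 comparisons, with unadjusted 95% intervals from limma. The interval of TGFBR2 lies below 0 with Pink1 siRNA, with the double siRNA and in the 6 against 6 comparison, and that of SMAD7 above 0 in the last; none is called after adjustment.

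In counts that carry no test, 3 of the 10 genes had groups that did not overlap between Pink1 siRNA and scramble (25% of all genes), 1 between Nrf2 siRNA and scramble (22.9%) and 2 between the double siRNA and scramble (18.1%). These shares are close to the background. The 3 were TGFBR1, TGFBR2 and SMAD3, the 1 was TGFBR3, and the 2 were TGFBR2 and SMAD7. With ENSG00000226958 removed the counts were 3, 0 and 2: TGFB2, TGFBR2 and SMAD3 with Pink1 siRNA, and TGFBR2 and SMAD7 with the double siRNA. The share of all genes was not counted under that rescaling, so these last counts have no background.

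Comparisons between the siRNAs called 0 of the 10 genes as well. The shares called over all genes were 0.0434% for the double siRNA against Pink1 siRNA, 0.0145% for the double siRNA against Nrf2 siRNA and 0.992% for Pink1 siRNA against Nrf2 siRNA. At an unadjusted p under 0.05 there were 1, 1 and 2 of the 10. The double siRNA against Pink1 siRNA gave a log2 difference of 0.42 for TGFB2 (95% interval 0.040 to 0.80, limma adjusted p = 0.785), and the double siRNA against Nrf2 siRNA gave -0.31 for TGFBR2 (95% interval -0.60 to -0.012, adjusted p = 0.702). Pink1 siRNA against Nrf2 siRNA gave -0.42 for TGFB2 (limma adjusted p = 0.371) and -0.38 for TGFBR2 (adjusted p = 0.287).

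The interaction asks whether the double siRNA departs from the sum of the single ones on the log2 scale. It called 0 of the 10 genes and 0 of all genes (0%), with 0 of the 10 at an unadjusted p under 0.05 (limma adjusted p at least 0.915 for the 10). For TGFBR2 it was 0.11 (SE 0.19, 95% interval -0.31 to 0.53), an interval that holds both 0 and a departure as large as the difference with Pink1 siRNA itself. For SMAD3 it was -0.27 (95% interval -0.85 to 0.30). The 6 against 6 comparison by Nrf2 siRNA called 0 of the 10 (0.731% of all genes), with TGFB2 alone at an unadjusted p under 0.05. The F test over the 4 groups called 0 of the 10 (1.13% of all genes), with TGFBR2 alone at an unadjusted p under 0.05 (limma adjusted p = 0.238).

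TGFBR2, the gene of the 10 with the smallest p in that F test, was closest across the 12 samples to AOX1 (Pearson r = 0.925), DPP4 (r = 0.924) and PON2 (r = 0.917) among the 9806 genes whose mean reached 5 TPM. These correlations describe the samples, which share a total and 4 groups. AOX1 encodes an aldehyde oxidase, DPP4 a membrane peptidase and PON2 a lactonase with antioxidant activity. Among the 10 genes themselves, r ran from -0.59 for TGFBR2 with SMAD3 to 0.65 for TGFBR1 with SMAD2. TGFBR2 was also at -0.52 with SMAD7 and -0.47 with TGFBR1.

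Other genes of the pathway were read from 5 lists. Of the 14 genes for latency and activation of the ligands, 12 were tested, and 3 were called with Nrf2 siRNA and the same 3 with the double siRNA: ITGB5 and THBS1 rose and ITGB8 fell, while with Pink1 siRNA 0 were called, with 5 at an unadjusted p under 0.05. Over all genes tested, 0.471%, 0.333% and 0.753% were called with Pink1, Nrf2 and double siRNA. The list's median log2 difference was 0.34 with Pink1 siRNA, 0.29 with Nrf2 siRNA and 0.34 with the double siRNA. For all genes tested it was 0.022, 0.016 and 0.0059. No list median was computed with ENSG00000226958 removed. The list was chosen with earlier results of these data known, and its counts carry no test.

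ITGB8, the integrin beta subunit whose pairing with the alpha v subunit frees TGF-beta from its latent form, stood at 15.7 ± 0.903 TPM with scramble, 12.1 ± 1.06 with Pink1 siRNA, 8.27 ± 0.496 with Nrf2 siRNA and 6.66 ± 0.28 with the double siRNA. All 3 siRNA groups lay below all scramble samples. Its log2 difference was -0.85 with Nrf2 siRNA (SE 0.13, limma adjusted p = 0.0226) and -1.13 with the double siRNA (adjusted p = 0.00301), and -0.36 with Pink1 siRNA (adjusted p = 0.280). The call with the double siRNA held without each of the 12 samples in turn, and that with Nrf2 siRNA in 6 of the 12; the latter was also lost with technical replicate 2 alone (adjusted p = 0.123).

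ITGB5, another partner of the alpha v subunit, stood at 201 ± 8.67 TPM with scramble and 298 ± 42.7, 368 ± 45.3 and 416 ± 57.5 TPM with Pink1, Nrf2 and double siRNA. The log2 differences were 0.56, 0.87 and 1.04 (SE 0.15; limma adjusted p = 0.155, 0.0352 and 0.0101). THBS1, thrombospondin 1, a matrix protein that can activate latent TGF-beta, stood at 155 ± 12.2 TPM with scramble and 155 ± 10.4 with Pink1 siRNA, and at 261 ± 16.7 and 257 ± 27.6 TPM with Nrf2 and double siRNA (log2 differences 0.75 and 0.72, limma adjusted p = 0.0352 and 0.0280). Leaving out 1 sample at a time kept the call of ITGB5 in 3 of 12 fits with Nrf2 siRNA and 10 of 12 with the double siRNA, and that of THBS1 in 3 and 5 of 12. Without any 1 of the 3 scramble samples the THBS1 calls and those of ITGB5 and ITGB8 with Nrf2 siRNA were lost (adjusted p from 0.0811 to 0.173), and without scramble replicate 2 or 3 also that of ITGB5 with the double siRNA (0.0716 and 0.0563). With the double siRNA the calls of ITGB5 and THBS1 were also lost in a fit of the compared groups alone (adjusted p = 0.102 and 0.205), and with Nrf2 siRNA without the intensity trend (0.0701 and 0.0714). The group mean of CD68 was 30.3 TPM with scramble, 66.6 with Nrf2 siRNA and 40.4 with the double siRNA, a difference that was not called, and its part in these results was not tested.

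The latent TGF-beta binding proteins LTBP1 and LTBP4, which tether the latent ligand to the matrix, were named after their values were seen. LTBP1 stood at 8.74 ± 3.42 TPM with scramble and 22.2 ± 6.38 with Pink1 siRNA (log2 difference 1.27, limma adjusted p = 0.0547), and in the 6 against 6 comparison by Pink1 siRNA it was called at 0.90 (adjusted p = 0.0492), a call kept in 3 of 12 fits that left out 1 sample (adjusted p up to 0.148). LTBP4 stood at 20.7 ± 2.68 TPM with scramble and 41.5 ± 7.07 with Pink1 siRNA (0.97, adjusted p = 0.0643). With the double siRNA, LTBP1 stood at 17.1 ± 2.16 TPM (0.94, adjusted p = 0.125) and LTBP4 at 27.2 ± 6.78 TPM (0.36, adjusted p = 0.461, overlapping with scramble). LTBP2 and LTBP3, of the same family and list, changed less with Pink1 siRNA. LTBP2 stood at 22.6 ± 1.81 TPM with scramble and 25.5 ± 4.24 with Pink1 siRNA. LTBP3 stood at 189 ± 7.45 TPM with scramble and 248 ± 40.1 with Pink1 siRNA.

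Of the 30 transcriptional targets, 24 were tested. With Pink1 siRNA 0 were called and 2 had an unadjusted p under 0.05, with Nrf2 siRNA MMP2 and LOX rose, and with the double siRNA MMP2, LOX and FN1 rose. None was called lower in these 3 comparisons, where 10, 7 and 5 of the 24 differences were negative. The median log2 difference was 0.059, 0.23 and 0.33, beside 0.022, 0.016 and 0.0059 for all genes tested. Of all genes tested, 0.471%, 0.333% and 0.753% were called in these comparisons. MMP2, a gelatin-cleaving protease, stood at 38.8 ± 3.15 TPM with scramble, 32.6 ± 1.79 with Pink1 siRNA and 86.0 ± 6.63 and 66.2 ± 4.06 with Nrf2 and double siRNA, at log2 differences of 1.13 and 0.76 (limma adjusted p = 0.00211 and 0.0192). The first call held in 12 of 12 fits that left out 1 sample, and the second in 9 of 12, lost without any 1 of the scramble samples (adjusted p = 0.0697 to 0.122), in a fit of the compared groups alone (0.165) and with technical replicate 1 alone (0.147).

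LOX, which crosslinks collagen, stood at 347 ± 44.3 TPM with scramble and 639 ± 67.9 and 606 ± 82.9 TPM with Nrf2 and double siRNA (0.88 and 0.80, limma adjusted p = 0.0310 and 0.0307; calls held in 3 and 5 of 12 fits). FN1, fibronectin, stood at 378 ± 16.4 TPM with scramble and 881 ± 306 with the double siRNA (1.17, adjusted p = 0.0340; held in 4 of 12). The calls of LOX and FN1 were lost without any 1 of the scramble samples (adjusted p from 0.0660 to 0.160). With the double siRNA both were also lost in a fit of the compared groups alone (0.207 and 0.166), without the intensity trend (0.0582 and 0.0668) and without a filter (0.0624 and 0.0846). CCN2, a direct SMAD target named after its values were seen, stood at 295 ± 96.2 TPM with scramble, and its log2 differences from it were -0.25, -0.41 and 0.40, none of them called (limma adjusted p at least 0.587). In the 6 against 6 comparison by Nrf2 siRNA, MMP2, LOX, FN1, IGFBP3 and BHLHE40 were called higher, the last 2 named after their values were seen. That comparison called 0.731% of all genes tested. The calls of MMP2 and LOX held in 12 of 12 fits that left out 1 sample, those of IGFBP3, FN1 and BHLHE40 in 10, 4 and 2.

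The 3 other lists had 0 calls against scramble in 22 genes tested, beside 0.471%, 0.333% and 0.753% of all genes with Pink1, Nrf2 and double siRNA. Of 4 other receptors, ACVR1, an activin and BMP type I receptor, differed by 0.30, 0.19 and 0.20 and ACVR2A, an activin type II receptor, by -0.11, 0.022 and 0.19 on the log2 scale, and 0 of the 4 had an unadjusted p under 0.05. Of 4 other SMADs, SMAD9, of the BMP branch, stood at 15.8 ± 1.14 TPM with scramble, 14.5 ± 0.862 with Pink1 siRNA, and 9.22 ± 1.49 and 9.35 ± 2.63 TPM with Nrf2 and double siRNA (-0.73 each, limma adjusted p = 0.111 and 0.0942), and it was called lower over the 6 samples with Nrf2 siRNA (-0.67, adjusted p = 0.0311; held in 3 of 12 fits that left out 1 sample). SMAD6, the inhibitor of that branch, differed by -0.26, -0.47 and -0.18. Of 14 regulators of SMAD signalling, the ubiquitin ligase SMURF2, which acts with SMAD7 to remove receptors, stood at 59.0 ± 5.73 TPM with scramble and 37.6 ± 1.29 with the double siRNA (-0.63, limma adjusted p = 0.0528), and SMURF1 differed by 0.24, 0.41 and 0.41. Of the regulators, 0, 2 and 3 had an unadjusted p under 0.05.

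**Figure D4:**
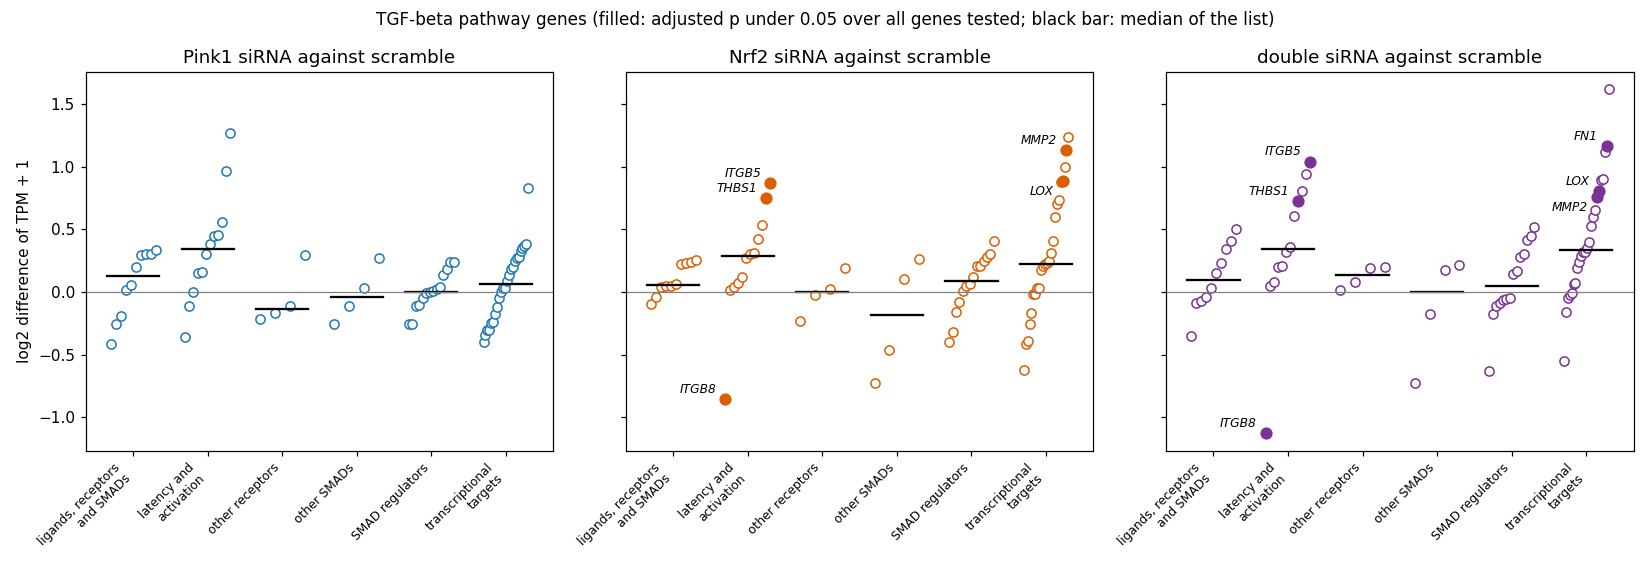
Log2 difference of TPM + 1 from scramble (y axis) for each tested gene of the pathway (points, by list on the x axis) in the 3 siRNA groups; filled points are called and labelled, and black bars are list medians. No ligand, receptor or SMAD among the 10 is filled, and the filled points are ITGB5, THBS1, ITGB8, MMP2, LOX and FN1, with Nrf2 or double siRNA only.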

How the data were processed

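RNA of ARPE-19 cells was measured in 24 deposited samples of 4 groups. Libraries were of stranded mRNA, read in pairs, per the labels' protocols. Per the submitters' processing notes STAR, RSEM and edgeR were used with builds GRCh37 and hg19; their versions and the strand setting of counting are not stated there. The values are TPM as deposited by the authors, per column summing to between 999678 and 999945, with no read counts, so depth is unknown and no interval that needs it is given. All 24 columns were mapped by name.

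Technical pairs were averaged, leaving 12 samples. No column was a copy of another. Genes whose mean reached 1 TPM were fitted as log2(TPM + 1) with the 4 groups in limma 3.58.1 (R 4.3.3), with an intensity trend (8 residual and 4.93 prior degrees of freedom), two-sided. The comparisons were each siRNA against scramble, the siRNA groups against each other, their interaction, the main effect of each siRNA (6 samples against 6) and the F test over the groups. With 3 samples against 3, a permutation test of 1 gene cannot give a p below 0.1. The fit was tested on simulated data. Alternatives were other pseudocounts (0.1 and 5), filters (none, 5 TPM), scalings, priors, sample weights, the compared groups alone, each technical replicate alone, the replicate number as a block, and each sample left out.

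The 10 genes, the pathway lists, the ratios and the comparisons were chosen with earlier results of these data known. Named are the 10 genes, the siRNA targets, from each list those called against scramble and the 2 with the smallest F-test p, the 3 genes most like the member with the smallest F-test p, and ENSG00000226958. LTBP1, LTBP2, LTBP3, LTBP4, CCN2, IGFBP3, BHLHE40 and the cell type markers stand outside this rule and were chosen after their values were seen. From the lists, ENG, ACVRL1, DCN, BGN, COL1A2, SNAI2 and IL11 are not analysed here.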

Additional observations from a re-analysis of the deposited data

How the results depend on the processing

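With 0 of the 10 genes called as reported in all 10 comparisons, 234 of the 236 counts obtained without sample weights were also 0, including those that left out each of the 12 samples in turn (0 to 0 in every comparison). The exceptions were the Pink1 siRNA comparison of 6 against 6 after median-of-ratios rescaling and with ENSG00000226958 removed, each with 1 call, TGFBR2. Sample weights changed more. limma's default sample weights called 1 gene with Pink1 siRNA, 5 with the double siRNA, 2 for the double siRNA against Pink1 siRNA, 2 for Pink1 siRNA against Nrf2 siRNA, 2 in the Nrf2 and 3 in the Pink1 comparison of 6 against 6, and 6 in the F test; double siRNA replicate 2 carried a weight of 11.4 and replicates 1 and 3 weights of 0.211 and 0.291, and the weights had not converged. A gene-by-gene estimate of the weights, added after seeing that, gave 1, 0, 1, 1, 1, 1 and 2 calls in the same order, all of TGFB2 or TGFBR2. Only with the default weights did TGFB1 turn direction, to -0.035 for the double siRNA against Nrf2 siRNA and to -0.051 in the Nrf2 comparison of 6 against 6; the cause was not tested. A turn of direction was counted where the value lay more than 1 SE from 0.

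Correlations of deviations between same-numbered samples ran from -0.0846 to 0.113, with 1 of 18 over 0.1. No clear pairing by replicate number was seen, but correlations over all genes cannot exclude one. The labels do not say what a shared number means. With the replicate block, 0 of the 10 genes were called in every comparison, and over all genes 40 with Pink1 siRNA, 30 with Nrf2 siRNA and 106 with the double siRNA, beside 65, 46 and 104 without it; ITGB5, LOX and THBS1 with Nrf2 siRNA then missed the threshold (adjusted p = 0.0512, 0.0513 and 0.0583). Other settings than leave-outs that ended further list calls were the compared groups alone, no intensity trend, no filter and single technical replicates, with adjusted p from 0.0506 to 0.207 for comparisons with scramble; the cause was not tested. Counts over all genes ranged without sample weights, leave-outs included, from 22 to 215, 6 to 167 and 19 to 335. The number of reads behind a TPM is unknown, which limits TGFB3 most.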
